A study of Mus musculus with 5 samples.

Results

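The single array hybridised with DNA from cardiomyocyte microvesicles was set against the 2 arrays hybridised with RNA from such microvesicles. These are 3 of the 5 arrays of the series, chosen by their labels. Within them, the account centres on the 49 of 25697 probes that had a detection p of 0 on the DNA array, of which 44 carried 1 gene symbol each, for 44 of the 16593 genes named on the array. With 1 DNA array there was no replicate of the DNA measurement, so every statement on it describes that array and carries no test. All material came from HL-1, a line of mouse atrial cardiomyocytes grown in Claycomb medium. The groups were microvesicle DNA (1 array), microvesicle total RNA (2 arrays) and total RNA of the HL-1 cells themselves (2 arrays, named control in the labels). Every array was of the Illumina MouseRef type, read in the Cy3 channel after conversion of the sample to labelled cRNA. For the DNA, terminal deoxynucleotidyl transferase first added a poly-T tail, which let the same amplification kit copy and label it. The labels do not say whether RNA was removed from the DNA extract, or whether the 2 RNA arrays of a kind came from separate cultures.

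Microvesicles are small membrane-bound particles that cells shed from their surface or release from internal compartments. They carry protein, RNA and DNA of the cell they come from, and those of cardiomyocytes have been studied as a way for heart cells to pass nucleic acid to their neighbours. RNA of a gene is present according to its transcription and stability, whereas genomic DNA holds a gene whether or not it is transcribed. An expression array is built for the first kind of sample, since its probes are placed in transcripts.

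Each probe is an oligonucleotide carried on many beads, and its raw signal is the mean intensity of those beads in arbitrary units. The error given beside a signal is the standard error over the beads of 1 array (bead SE), which holds no spread between samples. The detection p of a probe is the share of the array's negative controls at or above its signal. The p-values moved in steps of 1 in 798 controls, so a p of 0 means a signal above every control on that array. A probe is called detected below at a detection p under 0.01. Raw signals are not background-subtracted, and the median raw signal, which mostly reflects background, was 70.2 on the DNA array, 63.0 and 90.9 on microvesicle RNA arrays 1 and 2, and 63.6 and 62.6 on cell RNA arrays 1 and 2. The DNA array and microvesicle RNA array 2 shared a chip, while microvesicle RNA array 1 shared another chip with both cell RNA arrays, so that the chip and any likeness of the DNA array to microvesicle RNA array 2 cannot be told apart.

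The DNA array carried little signal above its negative controls. A detection p of 0 was reached by 49 probes (0.191% of the 25697), against 1389 and 4704 probes on microvesicle RNA arrays 1 and 2, and 3161 and 3051 on cell RNA arrays 1 and 2. By the definition of the detection p, probes with no target would give about 32.2 such calls, a figure that rests on the single brightest control. At a p under 0.01 the DNA array gave 343 probes (1.33%), against the 257 that the threshold itself implies. That figure is loose too, since at most 7 controls lie above the threshold, so the excess of the DNA array over it cannot be told from the sampling of the controls. The same threshold gave 7.88% of probes on microvesicle RNA array 1, 21.8% on microvesicle RNA array 2, 6.21% on both microvesicle RNA arrays and 13.5% on both cell RNA arrays. At a p under 0.05 the DNA array gave 1299 probes against an implied 1285. Only 1 probe passed a raw signal of 1000 on the DNA array, whereas 73 and 358 did so on microvesicle RNA arrays 1 and 2, and 417 and 326 on the cell RNA arrays.

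The 49 probes split into 2 sets by the precision of the DNA signal. In 14 of them the DNA signal less 2 bead SE still lay above the brightest probe without a p of 0, and these are called clear of the edge. The other 35 had DNA signals between 103.5 and 115.0, with a median of 107, and lay within 2 bead SE of the edge. The probe just inside was that of Cdon at 103.5 ± 4.11 (bead SE), and the 3 just outside were those of Ube2v2, Alyref and Akap9 at 103.4, 103.4 and 103.3, each with a detection p of 0.00125. Between 29 and 60 beads stood behind each of the 49 DNA signals. The raw signals also rank the probes exactly as the authors' processed values do on each of the 5 arrays.

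**Figure D1:**
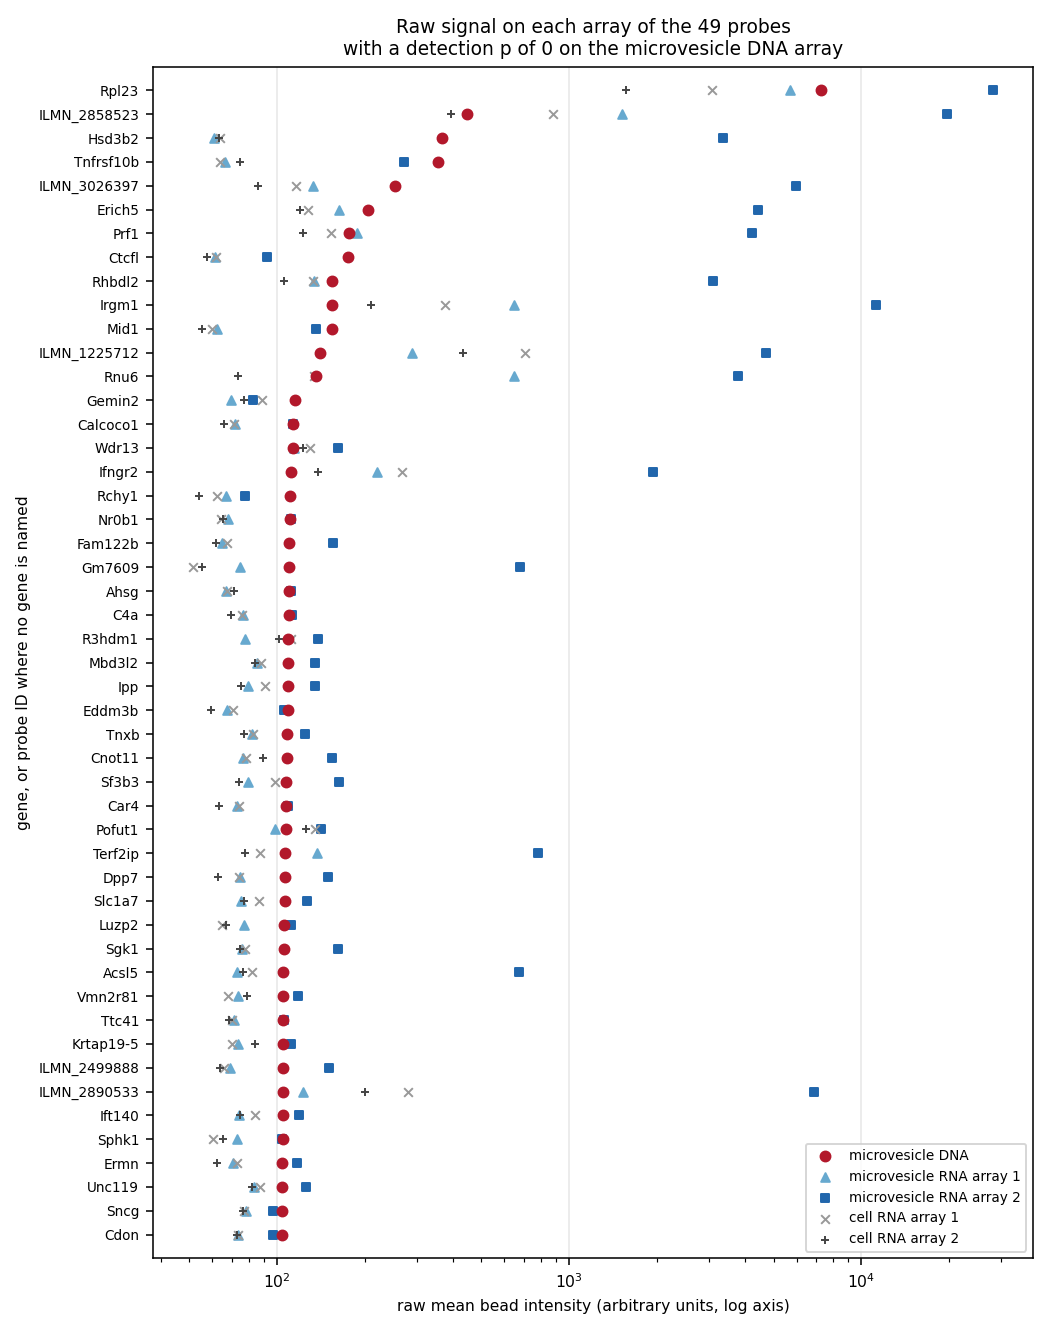
Raw signal (arbitrary units, log axis) of the 49 probes with a detection p of 0 on the DNA array, 1 row a probe in order of the DNA signal. Circles are microvesicle DNA, triangles and squares microvesicle RNA arrays 1 and 2, crosses and plus signs cell RNA arrays 1 and 2. The DNA signals fall from 7242 for Rpl23 to a row of 35 probes between 103.5 and 115.0, and the squares of 12 probes lie above 1000.

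One probe stood far from the rest of the DNA array. The probe of Rpl23, which encodes a protein of the large cytosolic ribosomal subunit, had a raw signal of 7242 ± 259 (bead SE) on the DNA array, against 5691 ± 142 and 28245 ± 1390 on microvesicle RNA arrays 1 and 2. In the cells it read 3075 and 1562. The DNA signal thus lay between the 2 microvesicle RNA signals and was 103 times the DNA array's median. It was 0.427 times the mean of the 2 microvesicle RNA signals. The order against microvesicle RNA turned with the RNA array, with a log2 ratio of 0.35 against array 1 alone and of -1.96 against array 2 alone.

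The other ribosomal protein genes did not share this signal. Of 81 probes for cytosolic ribosomal proteins, 2 were detected on the DNA array (2.47%, beside 1.33% of all probes), those of Rpl23 and, at 99.1, of Rps3, a small-subunit protein with 118 and 1778 on microvesicle RNA arrays 1 and 2. By comparison 48 and 63 of the 81 were detected on microvesicle RNA arrays 1 and 2, beside 7.88% and 21.8% of all probes. Of the 5 probes with the brightest mean microvesicle RNA signal, all of them ribosomal, the 4 other than Rpl23 were not detected on the DNA array. The Rplp1 probe, for an acidic protein of the ribosomal stalk, read 76.5 on the DNA array against 24418 and 16911 on microvesicle RNA arrays 1 and 2. Rps19 read 65.5 on the DNA array against 10580 and 20235, Rpl38 read 81.7 against 10093 and 20312, and Rpl9 read 75.4 against 10373 and 19150. All 4 DNA signals lay within the background of the DNA array.

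Nor did the other probes of Rpl23 read above background on the DNA array. The gene has 3 further probes, with DNA signals of 81.5, 69.6 and 57.2, none detected. The one at 69.6 read 118 and 11053 on microvesicle RNA arrays 1 and 2, so it reported the microvesicle RNA on both arrays and no DNA. The probe at 81.5 was detected on no array, and that at 57.2 on microvesicle RNA array 2 only, at 184. Those 2 reported the RNA poorly or not at all, so their DNA signals say little. Ribosomal protein genes have near-identical processed copies in the mouse genome, and the probe sequences were not used here, so which copies each probe could bind was not examined.

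Among the other 10 named genes clear of the edge, 3 code for proteins of immune defence or cell death. The grouping was made by hand for the description, and no list of such genes was counted over the array. Tnfrsf10b, the death receptor for the ligand TRAIL, read 356 ± 11.2 (bead SE) on the DNA array, against 66.3 and 271 on microvesicle RNA arrays 1 and 2. It was not detected on microvesicle RNA array 1, and the DNA signal lay above both RNA signals. In the cells it read 63.5 and 74.7, not detected on either array. Irgm1, an interferon-inducible GTPase that acts against intracellular bacteria, read 154 ± 7.26 on the DNA array, against 648 and 11259 on microvesicle RNA arrays 1 and 2. Here the DNA signal lay below both microvesicle RNA signals and below both cell RNA signals of 376 and 210. Prf1, which encodes the pore-forming perforin of cytotoxic lymphocytes, read 176 ± 6.91 on the DNA array, against 187 and 4222. Its cell RNA signals were 153 and 123, so that the DNA array, microvesicle RNA array 1 and the cells lay close together while microvesicle RNA array 2 stood apart. Ifngr2, a subunit of the interferon gamma receptor, belongs to the 35 near the edge, with 111 ± 7.88 on the DNA array, against 219 and 1940 on microvesicle RNA arrays 1 and 2.

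Ctcfl and Rnu6 act in the nucleus. Ctcfl encodes a testis-expressed relative of the chromatin insulator protein CTCF. Its probe read 175 ± 6.01 on the DNA array, against 61.5 and 92.6 on microvesicle RNA arrays 1 and 2, where it was not detected. It was not detected in the cells either, at 61.8 and 57.4. The DNA signal was 1.86 times microvesicle RNA. For each RNA array that ratio takes the higher of the probe's own signal and the lowest detected signal. The 2 values are averaged on the log2 scale. Against microvesicle RNA array 2 alone the ratio was 1.59. Less 2 bead SE the DNA signal was 163, above the lowest detected signal of 110 on array 2. The ratios are no lower bounds, since they leave out the bead SE. The choice of probes by their DNA signal also favours high ratios. Ctcfl was the 1 probe of the 14 that neither microvesicle RNA array detected (7.14%, beside 76.5% of all probes). Rnu6, the U6 small nuclear RNA of the spliceosome, read 135 ± 4.88 on the DNA array, against 649 and 3790 on microvesicle RNA arrays 1 and 2 and 134 and 73.7 on the cell RNA arrays. Its DNA signal was below both microvesicle RNA signals and close to that of cell RNA array 1.

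The other named genes clear of the edge were Hsd3b2, Mid1, Rhbdl2, Erich5 and Wdr13. Hsd3b2 belongs to a family of close copies that encode steroid-synthesising hydroxysteroid dehydrogenases. Its probe read 367 ± 19.3 on the DNA array, against 60.7 and 3353 on microvesicle RNA arrays 1 and 2, not detected on array 1. Both cell RNA arrays were at background for it, with 63.8 and 63.4. Mid1, a microtubule-associated ubiquitin ligase, read 154 ± 8.35 on the DNA array, against 62.3 and 136, and was detected on microvesicle RNA array 2 and on neither cell array. Rhbdl2, a rhomboid protease of the cell surface, read 154 ± 6.36 on the DNA array, against 134 and 3115. Erich5 read 204 ± 8.60 on the DNA array, against 163 and 4430. These 2 genes were detected on all 5 arrays, with cell RNA signals of 133 and 105 for Rhbdl2 and of 127 and 119 for Erich5. Wdr13, a WD-repeat protein, read 113 ± 4.53 on the DNA array, against 115 and 161, and 129 and 123 in the cells. Its DNA signal lay just below that of microvesicle RNA array 1 and further below the rest.

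The 3 probes clear of the edge that carry no gene symbol in the annotation used were all brightest on microvesicle RNA array 2. ILMN_2858523 read 448 ± 16.6 on the DNA array, against 1519 and 19551 on microvesicle RNA arrays 1 and 2. ILMN_3026397 read 254 ± 8.74 on the DNA array, against 133 and 5950. ILMN_1225712 read 140 ± 7.12 on the DNA array, against 291 and 4722. The DNA signal was below both microvesicle RNA signals for ILMN_2858523 and ILMN_1225712 and between them for ILMN_3026397.

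Over the 14 probes, 10 passed a raw signal of 1000 on microvesicle RNA array 2, where the whole array had 358 such probes. On microvesicle RNA array 1 only 2 of the 14 did, where the whole array had 73. Microvesicle RNA arrays 1 and 2 detected 10 and 13 of the 14 (71.4% and 92.9%), beside 7.88% and 21.8% of all probes. The DNA signal was above both microvesicle RNA signals for Tnfrsf10b, Ctcfl and Mid1, and below that of microvesicle RNA array 2 for the other 11. These counts were the same when each array was divided by its median and after background correction from the negative controls. For Mid1 the raw signals were close, at 154 ± 8.35 (bead SE) on the DNA array and 136 ± 7.06 on array 2. The probes were chosen by their DNA signal, which favours its lying above.

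**Figure D2:**
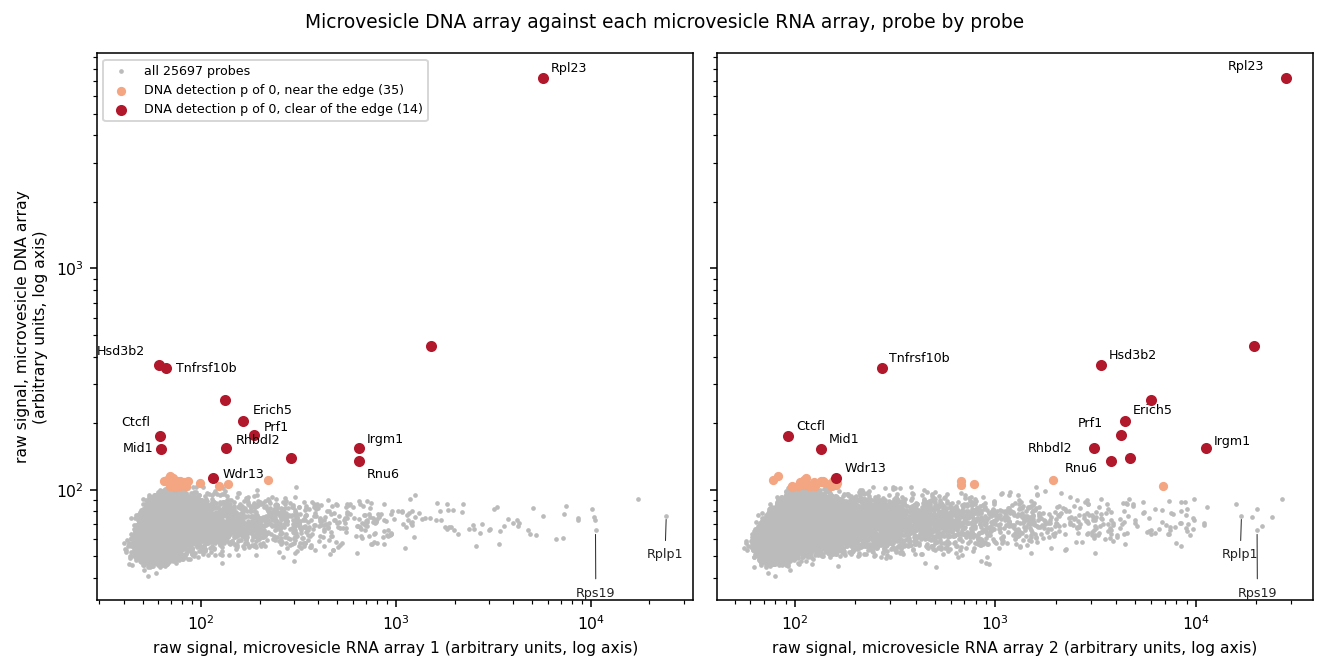
Raw signal on the DNA array against microvesicle RNA array 1 (left) and 2 (right), both axes in arbitrary units on log scales, 1 point a probe. Dark points are the 14 probes clear of the edge, light points the other 35 with a DNA detection p of 0, and grey points all probes. On array 2, 10 of the 14 lie above 1000, while Rplp1 and Rps19 lie at 76.5 and 65.5 on the DNA array.

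Of the 35 probes near the edge, 27 were detected on microvesicle RNA array 2 (77.1%, beside 21.8% of all probes) and 7 on array 1 (20%, beside 7.88%). Their median signals were 125 on array 2 and 74.5 on array 1, at the median percentiles 83.6 and 88.3 of all probes. Of the cell RNA arrays, both detected 6 (17.1%, beside 13.5% of all probes) and neither detected 19 (54.3%, beside 83.1%). The 5 brightest of them on array 2 included Ifngr2. Terf2ip, a telomere-binding protein of the shelterin complex, read 107 on the DNA array, against 137 and 780 on microvesicle RNA arrays 1 and 2. The predicted gene Gm7609 read 110 on the DNA array, against 74.5 and 676, and Acsl5, an enzyme that activates long-chain fatty acids, read 105 against 73.0 and 672. The unnamed probe ILMN_2890533 read 104 on the DNA array, against 123 and 6866.

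Of the other genes near the edge, 5 known from tissues other than heart muscle are described here. They were picked by hand, and no share of such genes over the array was counted. Ahsg encodes a plasma glycoprotein of the liver, Ermn a myelin protein, Krtap19-5 a hair keratin-associated protein, Vmn2r81 a vomeronasal receptor, and Eddm3b an epididymal protein. The Ahsg probe read 110 on the DNA array, against 66.9 and 111 on microvesicle RNA arrays 1 and 2, and that of Vmn2r81 read 105 against 73.2 and 118. The Ermn probe read 104 on the DNA array, against 70.4 and 117. All 5 lay near the lowest detected signal of 110 on microvesicle RNA array 2 and were not detected on array 1, and Eddm3b was detected on neither. Of the 5, only Krtap19-5 was detected in cell RNA, on cell RNA array 2 at 84.3. Tnxb, which encodes the matrix protein tenascin X, and C4a, a complement gene that RefSeq lists as a transcribed pseudogene, are near neighbours in the mouse genome with 7 genes between them. They read 108 and 109 on the DNA array, and both were detected on microvesicle RNA array 2 at 125 and 112.

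Taking all 49 probes, the share also detected as microvesicle RNA differed greatly between the 2 RNA arrays. On array 1 it was 17 of 49 (34.7%, exact binomial 95% interval 21.7 to 49.6%), beside 7.88% of all probes. On array 2 it was 40 of 49 (81.6%, 68.0 to 91.2%), beside 21.8% of all probes. The 17 were detected on both. Both cell RNA arrays detected 15 of the 49 (30.6%), beside 13.5% of all probes, and neither detected 23 (46.9%, beside 83.1%). The intervals cover counting error over probes of these arrays only.

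Of the 49 probes, 9 were detected on neither microvesicle RNA array (18.4%, beside 76.5% of all probes). They were those of Ctcfl, Gemin2, Rchy1, Eddm3b, Car4, Ttc41, Sphk1, Sncg and Cdon. Gemin2, which works in assembly of spliceosomal particles, read 115 ± 11.0 on the DNA array, against 69.5 and 82.8 on microvesicle RNA arrays 1 and 2. Its DNA signal was 1.22 times the log2 average of the lowest detected signals of the 2 RNA arrays. Rchy1, a ubiquitin ligase that acts on p53, read 111 ± 5.92 on the DNA array, against 66.8 and 77.4, a ratio of 1.18 by the same rule. Against array 2 alone these 2 ratios were 1.05 and 1.01. Less 2 bead SE the 2 DNA signals were 93.0 and 99.0, below the lowest detected signal of array 2. The ratios are therefore no lower bounds, and the choice of probes by their DNA signal favours high ratios. The DNA signals of the other 6 lay below the lowest detected signal of array 2, so no fold is given for them, and those of Car4 and Ttc41 lay below their own signals there. Of the 9, Ctcfl was the only one clear of the edge.

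On the raw scale the DNA signal was above both microvesicle RNA signals for 9 of the 49 probes, below both for 9 and between them for 31. The median ratio of the DNA signal to the mean microvesicle RNA signal was 1.001 over the 49 and 0.899 over all probes. Dividing each array by its median put 26 of the 49 above both and 10 below both. With background correction from the negative controls these counts were 16 and 10. With quantile normalization, which stretches the DNA array to the range of the RNA arrays, they were 47 and 0. The 49 were chosen by their DNA signal, which favours its lying above, and the counts were not set beside those over all probes. They therefore give no reading of DNA against RNA.

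The other probes of the same genes were not used in the choice of the 49. Of the 44 genes, 23 have 40 further probes, and none of the 40 was detected on the DNA array, where 1.33% of all probes were, so that a count of 0 is what 40 probes at that share would mostly give. Their DNA signals ran from 50.6 to 89.2, with a median of 69.6 beside the array's 70.2. The nearest to detection was an Hsd3b2 probe at 89.2, with a detection p of 0.0313. Hsd3b2 has 5 further probes from 65.5 to 89.2, and Tnfrsf10b has 4 from 54.6 to 85.1. Irgm1 had 71.4 and 62.4 on its 2 further probes, and Prf1, Erich5 and Wdr13 had 69.6, 71.5 and 81.8 on 1 each. The same 40 probes gave 1 detection on microvesicle RNA array 1, 5 on array 2 and 3 on both cell RNA arrays, beside 7.88%, 21.8% and 13.5% of all probes. In each of the 23 genes, 1 probe was thus detected on the DNA array and its further probes were not. That disagreement was not particular to DNA. On microvesicle RNA array 2 the further probes of Irgm1 read 90.7 and 67.2, that of Prf1 95.9, of Erich5 84.3 and of Wdr13 94.1. Those of Hsd3b2 ran from 81.4 to 104 and those of Tnfrsf10b from 81.8 to 101. The further probes of these genes were detected on no array, so their DNA signals say little. Ctcfl, Rhbdl2, Mid1 and Rnu6 have no other probe on the array to compare.

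**Figure D3:**
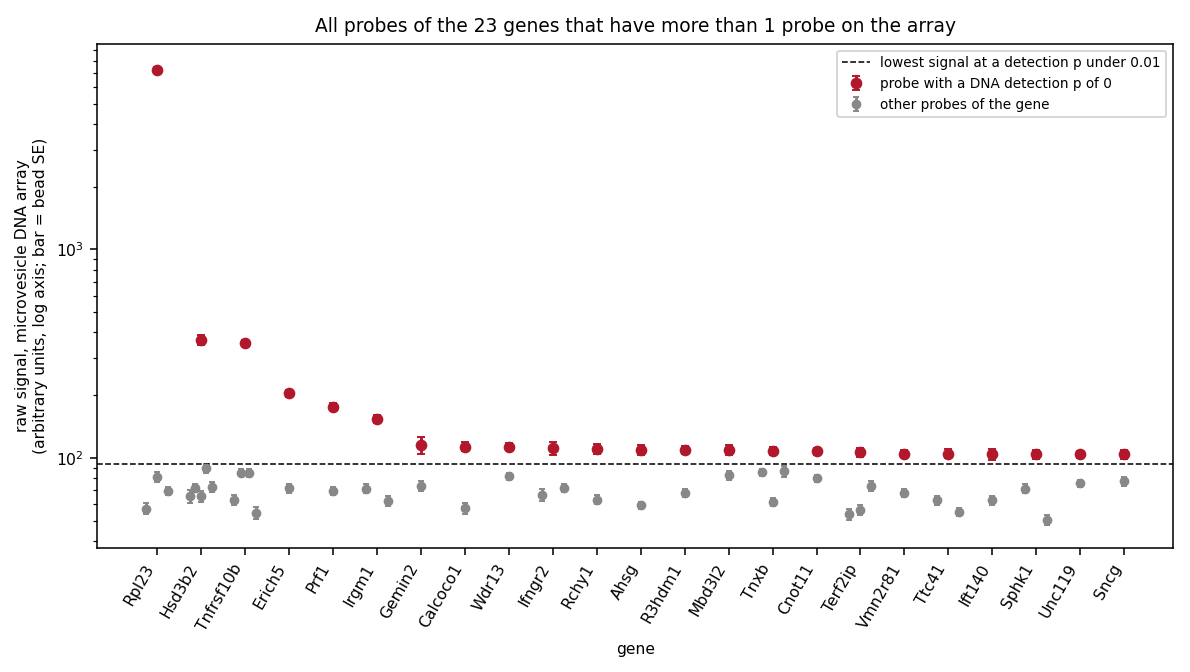
DNA array signal (arbitrary units, log axis) of every probe of the 23 genes that have more than 1 probe. Large points are the probes with a detection p of 0, small grey points the 40 other probes, bars are bead SE, and the dashed line is the lowest detected DNA signal, 93.5. All 40 other probes lie below the line.

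Detection on the DNA array was more frequent among probes that microvesicle RNA array 2 also detected. The DNA array detected 57 of the 1595 probes found on both microvesicle RNA arrays (3.57%, exact binomial 95% interval 2.72 to 4.61%) and 149 of the 4010 found on array 2 alone (3.72%, 3.15 to 4.35%). It detected 0 of the 429 found on array 1 alone, which allows a share of up to 0.699%, and 137 of the 19663 found on neither (0.697%, 0.585 to 0.823%). Probes found in cell RNA and not on that array had no such share. Of the 1396 probes that both cell arrays detected and microvesicle RNA array 2 did not, 6 were detected on the DNA array (0.430%), against 139 of 3531 for the converse (3.94%).

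The share did not follow the RNA signal evenly. It was 0.0264% among the 7583 probes with a p of 0.5 and above on microvesicle RNA array 2, 0.331% among the 9063 with a p from 0.1 to under 0.5, and 3.05% among the 3446 with a p from 0.01 to under 0.1. Among detected probes it was 4.23% under a signal of 200, 2.11% from 200 to under 1000, 5.63% from 1000 to under 5000 and, over 56 probes, 8.93% from 5000. Most of the step thus lay among probes that array 2 did not detect, and the last 2 intervals were wide, at 3.31 to 8.86% and 2.96 to 19.6%. The median DNA signal was 63.4, 72.4 and 77.6 in the 3 undetected bands and between 71.8 and 73.9 in the 4 detected ones. The bands were set after the data were seen.

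**Figure D4:**
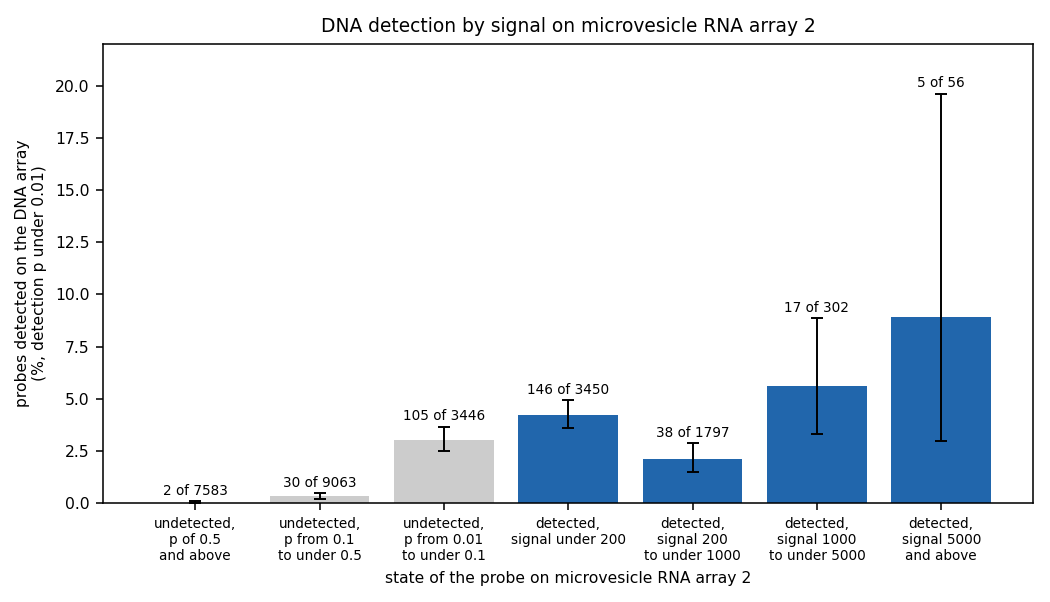
Share of probes detected on the DNA array (%, detection p under 0.01) by the probe's state on microvesicle RNA array 2, from least to most signal. Bars are shares over probes, error bars exact binomial 95% intervals, grey bars undetected and blue bars detected probes. The share is 0.0264% in the first band, 3.05% in the third and 8.93% in the last, where 5 of 56 probes were detected.

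The brightest RNA probes were nearly all at background on the DNA array. Of the 50 brightest on microvesicle RNA array 2, 5 had a DNA detection p of 0, those of Rpl23 and Irgm1 and the unnamed ILMN_2858523, ILMN_2890533 and ILMN_3026397. Of the 50 brightest on microvesicle RNA array 1, Rpl23 was the only one, and of the 50 brightest on each cell RNA array there was none. The median DNA signal of the 50 was 73.9 for microvesicle RNA array 2 and 70.6 for array 1, beside 70.2 over all probes.

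Across all probes the DNA signal ranked with the RNA signals only loosely. Spearman's rho over the 25697 probes was 0.344 and 0.427 between the DNA array and microvesicle RNA arrays 1 and 2, and 0.221 and 0.286 between the DNA array and the cell RNA arrays. Over the 15370 probes at a p of 0.05 and above on all 4 RNA arrays, where the values lie at background, the 4 coefficients were 0.385, 0.563, 0.267 and 0.362. Over the 7694 probes detected on any array they were 0.114, 0.070, -0.085 and -0.046. The coefficients were thus higher over the probes at background on all 4 RNA arrays. The 7694 include probes detected on the DNA array, and such a choice can itself lower a coefficient between DNA and RNA signals. Probes are not independent replicates, and they share their sequence and bead type between arrays, so the coefficients are descriptions.

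Among the largest gene classes, 3 differed widely in microvesicle RNA and had DNA shares near that of all probes. Of 28 lists of gene classes, 27 had probes, and 6 of the 49 probes fell in a list, 1 each in the cytosolic ribosomal proteins (Rpl23), the small and noncoding RNAs (Rnu6), the predicted or clone-named genes (Gm7609), the solute carriers (the glutamate transporter Slc1a7), the olfactory and vomeronasal receptors (Vmn2r81) and the keratins (Krtap19-5). None had more than 1. At a p under 0.01, with 1.33% of all probes detected on the DNA array, the olfactory and vomeronasal receptors had 14 of 1341 (1.04%), the zinc finger proteins 6 of 448 (1.34%) and the solute carriers 5 of 446 (1.12%). The same 3 classes had 0.746%, 24.1% and 15.9% of their probes detected on microvesicle RNA array 2. The predicted or clone-named genes, also a large list, had 9 of 510 on the DNA array (1.76%) and 14.9% on microvesicle RNA array 2. Olfactory receptors, mostly silent outside sensory tissue, and the widely transcribed zinc finger proteins thus had very different shares on that RNA array. On the DNA array all 3 classes lay near the 1.33% over all probes, itself not told apart from the threshold. Their DNA shares therefore give no reading of DNA content by class.

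Classes with abundant RNA in cardiomyocytes had 0 to 3 probes each detected on the DNA array, counts too small to set apart from the 1.33% over all probes. The nuclear-encoded respiratory chain had 3 of 101 probes detected on the DNA array (2.97%), those of Sdhb, Atp5a1 and Cox6a1 at 96.8, 96.2 and 95.0, and 72 of 101 on microvesicle RNA array 2. Mitochondrial ribosomal proteins had 1 of 110 on the DNA array (Mrps14 at 101) and 66 on microvesicle RNA array 2. The sarcomere had 0 of 29 on the DNA array and 16 on microvesicle RNA array 2, and cardiac transcription factors had 0 of 25 and 11. The calcium-handling and channel genes had 1 of 28 on the DNA array, the potassium channel Kcnh2 at 94.2, which read 187 and 174 on microvesicle RNA arrays 1 and 2 and 2692 and 2051 in the cells. Histones had 0 of 65, protocadherins 0 of 66 and cytochromes P450 4 of 97 on the DNA array. The 5 probes of small and noncoding RNAs gave 2 on the DNA array, Rnu6 and, at 95.8, the small nucleolar RNA Snora65, which was not detected as microvesicle RNA.

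**Figure D5:**
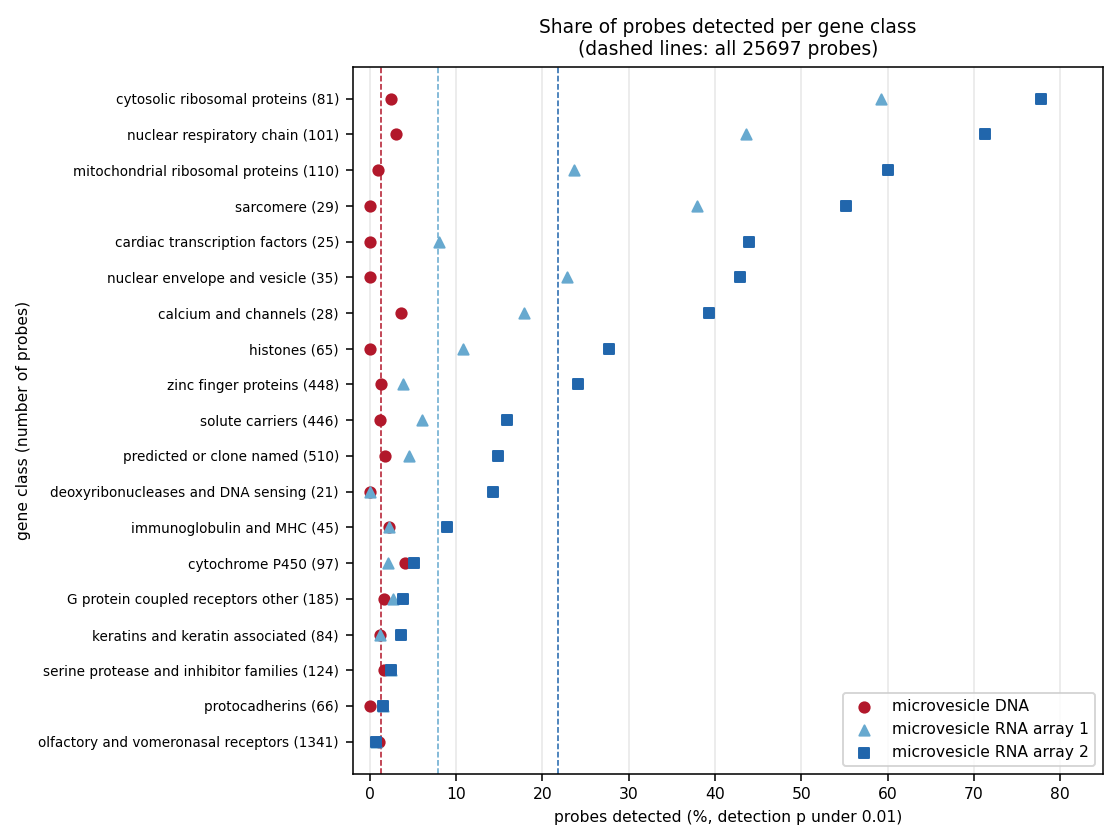
Share of probes detected (%, detection p under 0.01) for each gene class with at least 20 probes, with the number of probes in brackets. Circles are microvesicle DNA, triangles and squares microvesicle RNA arrays 1 and 2, and dashed lines the share over all probes on the same arrays (1.33%, 7.88% and 21.8%). The circles lie between 0 and 4.12% while the squares range from 0.746% for olfactory and vomeronasal receptors to 77.8% for cytosolic ribosomal proteins.

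Most markers of the labelled cell type were detected in the cell RNA. Of 10 cardiomyocyte markers, 9 had probes, and both cell RNA arrays detected 8 of the 9 genes, beside 13.5% of all probes. Microvesicle RNA arrays 1 and 2 detected 5 and 9, beside 7.88% and 21.8% of all probes. A gene with several probes counted here when 1 of them was detected. None of the 11 marker probes was detected on the DNA array, with signals from 61.0 to 86.6, and at 1.33% over all probes so few probes would mostly give 0. The probe of Myl4, the atrial essential myosin light chain, read 74.8 on the DNA array, against 1404 and 5871 on microvesicle RNA arrays 1 and 2 and 4906 and 3097 in the cells. Markers of fibroblasts, endothelium, smooth muscle, macrophages, red cells and serum, 43 probes in 5 lists, gave 0 detections on the DNA array (52.6 to 93.1), 3 on microvesicle RNA array 1 and 5 on array 2, all of smooth muscle. Both cell RNA arrays detected 6 of the 11 smooth muscle probes and 1 of the 9 endothelial probes, beside 13.5% of all probes. Smooth muscle markers were thus present in the cell RNA as well.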

How the data were processed

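Intensity values (mean raw bead signal per probe, not normalized), their bead standard errors and detection p-values were taken from the authors' deposited raw table; the processed signal was the authors' as well, its background and scaling steps not given in the sources used here, with BeadStudio 3.3 named per the submitters' processing notes. Bead counts per probe are the authors' deposited numbers of beads behind each mean. Processed values were used for ranks only. Probes were named through the platform annotation (23978 with 1 symbol, 1719 without), of which 23962 matched RefSeq GRCm38.p6. Detection was a p under 0.01. Shares carry exact binomial 95% intervals (Clopper-Pearson, scipy 1.17.1), and the limit for 0 detections is 3 counts of the total. The number of arrays limits the precision. Background correction (nec, offset 16) and quantile normalization (neqc) with limma 3.58.1 in R 4.3.3 were alternatives, and the code that counts detections was tested on simulated arrays. The 49 probes were named by the rule of a detection p of 0 on the DNA array, with full values for those clear of the edge by 2 bead SE. The probes and gene lists were chosen with earlier results of these data known. Microvesicle RNA and cell RNA arrays were grouped by their labels. No comparison was tested, as 1 DNA array leaves no spread.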

Additional observations from a re-analysis of the deposited data

How the results depend on the processing

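The count of 49 probes was 343 at a DNA detection p under 0.01, 1299 at a p under 0.05, 14 when 2 bead SE clear of the edge was required, and 49 with at least 20 beads. The share detected on both microvesicle RNA arrays (34.7%) was 16.6% for DNA p under 0.01, 71.4% for the 14 clear probes and 61.2% at an RNA p under 0.05, and without 1 RNA array it ran from 34.7 to 81.6%. The share on both cell arrays (30.6%) was 64.3% for the 14, 57.1% at an RNA p under 0.05, and 34.7 to 48.98% without 1 cell array. A looser RNA p raised the share over all probes as well. Both microvesicle RNA arrays detected 2402 of the 25697 probes at a p under 0.05, against 1595 at a p under 0.01. Cell RNA arrays 1 and 2 detected 22.4% and 21.2% of all probes at a p under 0.05, against 16.3% and 14.1% at a p under 0.01. DNA detection among probes found on both microvesicle RNA arrays (3.57%) was 5.20% at an RNA p under 0.05 and 1.07% at a DNA p of 0. The median ratio of 1.001 was 112 after quantile normalization, which by construction stretches the DNA array to the range of the RNA arrays. Under it the log2 ratio of DNA to mean microvesicle RNA turned positive for Rpl23 (0.59, from -1.23 raw), ILMN_2858523 (1.25), Hsd3b2 (4.02), ILMN_3026397 (2.88), Erich5 (3.22), Prf1 (3.19), Rhbdl2 (3.50), Irgm1 (0.98), ILMN_1225712 (2.33), Rnu6 (2.14) and Wdr13 (5.90). Without microvesicle RNA array 2 it turned positive for Rpl23 (range -1.96 to 0.35), Hsd3b2 (-3.19 to 2.60), ILMN_3026397 (-4.55 to 0.93), Erich5 (-4.44 to 0.32) and Rhbdl2 (-4.34 to 0.20). Pearson's r of log2 signals with the 2 microvesicle and 2 cell RNA arrays was 0.153, 0.188, 0.071 and 0.086. Over probes detected on any array the rank coefficients were 0.114, 0.070, -0.085 and -0.046, the 2 with cell RNA turning negative. Over probes at a p of 0.05 and above on all 4 RNA arrays the coefficient with microvesicle RNA array 2 was 0.563. With the cells the coefficients over those probes were 0.267 and 0.362. The cause was not tested. A ratio of the authors' processed values was not run, since some lie below 0. No paired analysis was possible because there was 1 DNA array and no result came from a test. Signal over background on the DNA array limits every statement: most of the 49 probes lie within 2 bead SE of the brightest control, and no second DNA array shows which would recur.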
